A study of Mus musculus with 7 samples.

Results

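The genes described are the FOS, JUN and EGR immediate early transcription factors: Fos, Fosb, Fosl1 and Fosl2 of the FOS family, Jun, Junb and Jund of the JUN family, and Egr1, Egr2 and Egr3 of the EGR family. They were taken by gene symbol from a list drawn up with earlier results of these data known, and all 10 were found among the 26607 genes listed for each library. RNA sequencing was carried out on differentiated myotubes of C2C12, an established mouse myoblast line whose cells fuse into contractile myotubes. In the EPS group (4 libraries, replicates 1 to 4), electrical pulse stimulation at 1 Hz, which makes myotubes contract, was begun 3 days into differentiation and kept on for 24 h, and the cells then rested for 1 h. The control group (3 libraries, replicates 1, 3 and 4) was labelled as receiving no treatment. The libraries are bulk samples of a culture of a single cell line, with no muscle tissue, nerve or blood supply, so a smaller share of myotubes in a dish and less RNA per myotube cannot be told apart. The labels do not say whether replicates were separate cultures, so p-values measure only the spread between these libraries.

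Immediate early genes are transcribed within minutes of a stimulus, without new protein synthesis, and their transcripts are short lived. FOS and JUN proteins pair through leucine zippers to form AP-1, which binds the motif TGANTCA; FOS proteins need a partner, whereas JUN proteins can also pair with each other. EGR proteins are zinc finger factors that bind GC-rich sites. Serum response factor (SRF), bound at CArG boxes, and CREB, bound at cAMP response elements, are textbook regulators of several of these promoters downstream of MAP kinase and calcium signals, and in skeletal muscle both contraction and stretch are known to induce Fos, Jun and Egr1.

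The 250 bases before the annotated start were read for 7 of the 10 genes from RefSeq (GRCm38.p6), and those of Egr2, Fos and Jun are shown as examples of the regulatory sequence of a gene of each family. Egr2 had 5 such windows, of which 1 was read, and each of the other genes had 1. Sequences run 5′ to 3′ on the gene's strand and end at the base before the start, with motif matches in capitals. The Egr2 window was chr10:67537619-67537868 (plus strand), the Fos window chr12:85473640-85473889 (plus strand) and the Jun window chr4:95052223-95052472 (minus strand).
Egr2: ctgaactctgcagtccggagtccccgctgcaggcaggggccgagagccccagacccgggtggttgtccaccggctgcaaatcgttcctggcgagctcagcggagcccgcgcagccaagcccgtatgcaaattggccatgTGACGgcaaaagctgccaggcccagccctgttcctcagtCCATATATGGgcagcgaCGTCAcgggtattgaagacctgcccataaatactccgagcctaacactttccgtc
Fos: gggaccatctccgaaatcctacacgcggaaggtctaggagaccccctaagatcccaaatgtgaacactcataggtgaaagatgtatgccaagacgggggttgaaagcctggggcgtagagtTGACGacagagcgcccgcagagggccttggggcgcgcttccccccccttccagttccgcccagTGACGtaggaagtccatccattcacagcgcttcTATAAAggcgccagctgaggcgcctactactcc
Jun: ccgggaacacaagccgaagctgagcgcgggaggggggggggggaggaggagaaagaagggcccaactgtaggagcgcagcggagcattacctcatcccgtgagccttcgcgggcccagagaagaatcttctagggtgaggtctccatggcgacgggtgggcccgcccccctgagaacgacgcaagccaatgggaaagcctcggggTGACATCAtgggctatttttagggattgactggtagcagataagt

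Motifs were searched on both strands of these windows, and positions are counted back from the start. In the Egr2 window, the capitals mark CCATATATGG, a match to the CArG box at positions -72 to -63, together with TGACG (the core of the cAMP response element) at -111 to -107 and, on the opposite strand, CGTCA at -55 to -51. Of 27025 RefSeq promoter windows of the same length, 1.40% held a CArG box and 17.9% held TGACG. In the Fos window, the capitals mark TGACG at -129 to -125 and at -66 to -62, and TATAAA, the TATA box motif, at -33 to -28 (13.0% of all windows). In the Jun window, they mark TGACATCA at -45 to -38, a motif held by 3.02% of all windows. The Fosb window held TGACG and GCGGGGGCG (a match to the EGR motif GCGNGGGCG, found in 4.65% of all windows), the Fosl2 window held GCGGGGGCG, the Junb window held TGACG and the Jund window held no match. The RefSeq starts of Fosl2 and Jund lie at 671 and -1210 bases from the GENCODE start (negative values are upstream), so that the Fosl2 window lies wholly in GENCODE exon sequence and the Jund window far upstream of the GENCODE gene. None of the 7 windows held the full element TGACGTCA (1.62% of all windows), TGANTCA (6.87%) or the ETS core CCGGAA (12.2%). TGACG is contained in TGACGTCA; the other motifs were counted separately. A match describes the letters in the window and is not evidence of binding.

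Each library held 16616917 to 22120641 reads, so that 3 reads corresponded to 0.136 to 0.181 CPM (read counts scaled to the library total, the unit used throughout). The library of control replicate 4 stood apart from the others: it had 359 genes with 1 to 5 reads, where the others had 2670 to 3181, and 14014 genes above 0, where the others had 16144 to 16984. Results for the 10 factors that rest on it are given with and without it. Myotube markers were abundant in both groups (summed CPM of 11 markers 15658 to 20696 in control and 10497 to 17359 in EPS). Of these, Actn2, a Z-disc protein, was lower at an unadjusted P under 0.05 in limma (log2 fold change -0.99, and -0.93 without control replicate 4), with no overlap. Myog, the myogenic factor of early differentiation, had a log2 fold change of -1.07, or -0.47 without control replicate 4. By contrast, markers of endothelial cells (0.0602 to 0.904 and 0.0914 to 0.372) and of neurons and glia (0 to 0.181 and 0.137 to 0.372) were near 0. Markers of undifferentiated myoblasts summed to 332 to 373 in control and 376 to 730 in EPS, with 0 of 8 passing the test for a change in limma. At an unadjusted P under 0.05 in limma, the proliferation genes Mki67, Ccnb1 and Cdk1 were higher, with log2 fold changes of 1.27, 1.38 and 0.94, and Myod1, Id1 and Id3 were lower, with -0.88, -1.09 and -0.96; without control replicate 4, Id1 was at -0.65. The 4 fibroblast markers summed to 84.9 to 153 and 56.2 to 148 (log2 fold changes of 0.70 for Pdgfra, or 0.43 without control replicate 4, and of -0.89 for Lum, each at an unadjusted P under 0.05 in limma), 3 tendon cell markers to 142 to 393 and 143 to 233, and 2 blood and immune markers to 0.525 to 1.08 and 0.884 to 2.07. The summed myoblast markers were higher in every EPS library than in any control library, although members of the list differed in direction. In edgeR, P under 0.01 and over 2-fold was met by Mki67 (log2 fold change 1.35), Ccnb1 (1.29), Id1 (-1.39), Id3 (-1.07), Myog (-1.39), Actn2 (-1.14) and Lum (-1.22). The part of these marker differences in the results for the 10 factors was not tested.

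All 3 EGR genes fell in EPS, each by more than 2-fold, whereas none of the 4 FOS or 3 JUN genes passed the test for a change. A change was called at an unadjusted P under 0.01 and a difference of over 2-fold in a limma fit of log2(CPM + 1) across 19144 genes. By this rule 3 of the 10 factors were lower, against 0.439% of all tested genes, and 0 of 10 were higher, against 0.966%. At an unadjusted p under 0.05, 3 of the factors were lower and 2 higher in limma, as were 615 and 1609 of the 19144 genes. At a stricter P under 0.001, 2 factors, Egr1 and Egr3, were lower. After Benjamini-Hochberg adjustment in limma, 0 of the 10 were below 0.05, as were 0.141% of all tested genes; in edgeR's quasi-likelihood test on the reads, 3 of the 10 were (the same EGR genes), against 1.51% of all tested genes. With EPS lower, the ranges of the groups were apart for 3 factors (2.85% of all tested genes) and, with EPS higher, for 1 factor, Fosl2 (7.76%). The median log2 fold change was -0.35 over the 10 factors and 0.04 over all tested genes. Among genes of at least 1 CPM on average, the median was 0.10, and it was 0.0052 with quantile scaling and -0.0048 with median-of-ratios scaling; of the called genes, 68.8% were higher in EPS in the reported fit, 51.6% and 52.8% with these scalings and 52.3% in edgeR, and under each of them the 3 EGR genes were called lower.

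**Figure D1:**
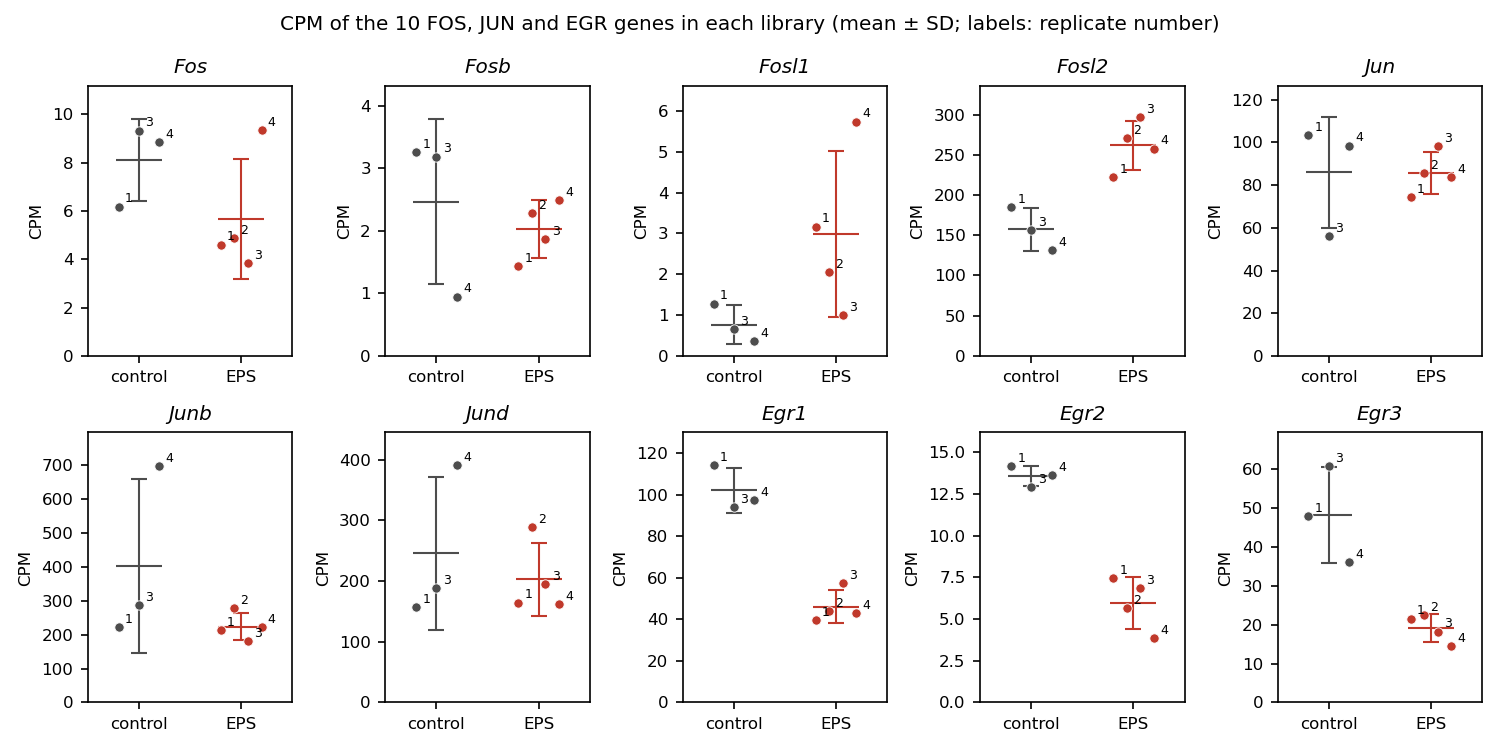
CPM of each of the 10 genes by group, 1 panel per gene, with the vertical axis starting at 0; points are libraries labelled by replicate number, and bars give the mean ± SD (3 control, 4 EPS). For Egr1, Egr2 and Egr3 every EPS point lies below every control point, for Fosl2 every EPS point lies above, and the Junb and Jund control means are carried by replicate 4.

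Egr1, the most abundant EGR gene here and the widely used marker of mitogen and calcium signalling, was at 114, 94.2 and 97.6 CPM in control replicates 1, 3 and 4 and at 39.5, 44.1, 57.6 and 43.2 CPM in EPS replicates 1 to 4. The highest EPS library was well below the lowest control library. The mean went from 102 ± 10.8 (SD, n = 3) to 46.1 ± 7.91 CPM (n = 4), a difference of -54.9%, with a log2 fold change of -1.14 (SE 0.17, 95% interval -1.52 to -0.76) and an adjusted p of 0.0542 in limma and 0.00274 in edgeR. The gene lies on the plus strand at chr18:34859823-34864984 (GRCm38, GENCODE M21).

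Egr2, known for its role in myelination by Schwann cells, was the least abundant EGR gene. Its CPM was 14.2, 12.9 and 13.7 in the control libraries and 7.45, 5.65, 6.85 and 3.88 in the EPS libraries. The control values lay close together, and EPS replicate 4 was the lowest of all. The mean went from 13.6 ± 0.617 (SD, n = 3) to 5.96 ± 1.58 CPM (n = 4), a difference of -56.2%, with a log2 fold change of -1.10 (SE 0.26) and an adjusted p of 0.143 in limma and 0.0168 in edgeR. Without EPS replicate 4 the log2 fold change was -0.94, which is short of 2-fold, and the call was lost. The call was also lost in a fit with a block for replicate number (-1.09). The gene spans chr10:67535475-67542188 on the plus strand, and the start used for the window shown above lies within it, inside an intron of longer annotated transcripts.

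Egr3, which is required for the development of muscle spindles in mice, had the largest estimated decrease of the 10 genes in the limma fit. Its CPM was 48.0, 60.8 and 36.1 in the control libraries and 21.6, 22.6, 18.2 and 14.4 in the EPS libraries. Control replicate 4 was the lowest control library and still above every EPS library. The mean went from 48.3 ± 12.4 (SD, n = 3) to 19.2 ± 3.68 CPM (n = 4), a difference of -60.2%, with a log2 fold change of -1.28 (SE 0.23) and an adjusted p of 0.0834 in limma and 0.00190 in edgeR. The gene lies at chr14:70077203-70082614 on the plus strand.

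The exact two-sided permutation test over the 35 assignments of libraries gave p = 0.0286 for each of the 3 EGR genes, the smallest p that 3 against 4 libraries can give. Without control replicate 4, the log2 fold changes of Egr1, Egr2 and Egr3 were -1.17, -1.09 and -1.46, and all 3 were still called. No difference in the proportions of the EGR genes to each other was detected. The log2 ratio of Egr1 over Egr2 differed between groups by -0.042, that of Egr1 over Egr3 by 0.14 and that of Egr2 over Egr3 by 0.18, with exact permutation p-values of at least 0.514, and the sum of the 3 genes went from 164 ± 15.0 (SD, n = 3) to 71.2 ± 8.82 CPM (n = 4). Egr4, the fourth gene of the family, was listed at 0 in every library.

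**Figure D2:**
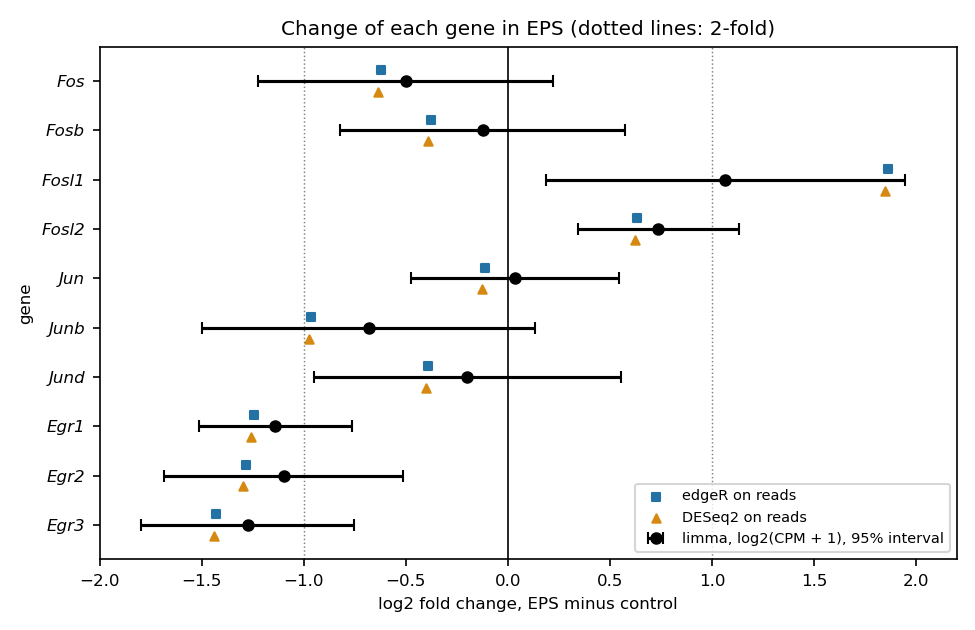
Log2 fold change of EPS minus control for the 10 genes; circles with bars are limma estimates on log2(CPM + 1) with 95% intervals, squares are edgeR and triangles DESeq2 estimates on the reads, and dotted lines mark 2-fold. The intervals of Egr1, Egr2 and Egr3 lie wholly below 0, those of Fosl1 and Fosl2 wholly above it, and those of the other 5 genes span it.

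Among the FOS genes, the members usually induced fastest were low and did not differ beyond the spread between libraries. Fos, the founding member, was at 6.18, 9.33 and 8.86 CPM in control and at 4.61, 4.87, 3.84 and 9.35 CPM in EPS. EPS replicate 4 was as high as the highest control library, whereas the other EPS libraries were below all controls. The log2 fold change was -0.50 (SE 0.32, 95% interval -1.22 to 0.22; adjusted p = 0.597 in limma), and the exact permutation p was 0.229. Fos lies at chr12:85473890-85477273 on the plus strand.

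Fosb, whose splice form ΔFOSB is known to be stable in brain, was at 3.26, 3.19 and 0.949 CPM in control and at 1.44, 2.29, 1.87 and 2.5 CPM in EPS. These rest on 21 to 56 reads per library, and control replicate 4 was below every EPS library while the other controls were above them. The log2 fold change was -0.12 (SE 0.31, 95% interval -0.82 to 0.57; adjusted p = 0.884 in limma), and -0.50 without control replicate 4. It turned to 0.069 without control replicate 1 and to 0.056 without control replicate 3, and was -0.38 in edgeR and -0.39 in DESeq2. Fosb lies at chr7:19302696-19310051 on the minus strand.

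Fosl1 and Fosl2 encode FRA1 and FRA2, which lack the strong transactivation domain of FOS and FOSB and are typically induced later and for longer. Fosl2, by far the most abundant FOS gene, was at 185, 157 and 131 CPM in control and at 223, 270, 297 and 258 CPM in EPS. The lowest EPS value exceeded the highest control value. The mean went from 158 ± 26.8 (SD, n = 3) to 262 ± 30.7 CPM (n = 4), 66.3% higher, with a log2 fold change of 0.74 (SE 0.17, 95% interval 0.34 to 1.13). This met the P threshold (P = 0.00229 in limma) but not the 2-fold threshold, with an adjusted p of 0.143 in limma, 0.217 in edgeR and 0.0797 in DESeq2, and an exact permutation p of 0.0286. Without control replicate 4, the lowest control library for Fosl2, the log2 fold change was 0.61 (adjusted p = 0.264 in limma). The gene lies at chr5:32135801-32157842 on the plus strand.

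Fosl1 was the scarcest of the 10 genes in control, at 1.28, 0.662 and 0.362 CPM (22, 11 and 8 reads), and was at 3.17, 2.05, 1.00 and 5.74 CPM in EPS (68, 42, 22 and 108 reads). EPS replicate 3 was below control replicate 1, and the other EPS libraries were above every control. The mean was 0.769 ± 0.470 (SD, n = 3) in control and 2.99 ± 2.03 CPM (n = 4) in EPS, with a log2 fold change on the log2(CPM + 1) scale of 1.07 (SE 0.39; adjusted p = 0.328 in limma), while edgeR gave 1.86 on the reads (adjusted p = 0.115) and the exact permutation p was 0.114. Fosl1 passed the threshold of P and fold in 3 of 16 alternatives, namely edgeR, DESeq2 and limma without EPS replicate 3 (1.35). In limma its log2 fold change was 0.77 without EPS replicate 4, its highest library. It was 0.89 without control replicate 4 and 0.998 without EPS replicate 1, all short of 2-fold. The gene lies at chr19:5447547-5455946 on the plus strand and shares 2767 bases with Ccdc85b on the other strand, which was at 9.68, 12.1 and 41.5 CPM in control and 16.9 to 20.7 CPM in EPS; whether the counting used strand is not given in the sources used here.

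Changes of proportion within the FOS family were examined by the log2 ratio of its genes, each as CPM + 1, in each library. The log2 ratio of Fos over Fosl1 was lower in EPS by 1.57 and that of Fosb over Fosl2 lower by 0.86, and neither ratio overlapped between groups (exact permutation p = 0.0286 each, adjusted p = 0.171 over 12 ratios). With a pseudocount of 0.1, the exact permutation p of Fosb over Fosl2 was 0.114, and the difference in Fos over Fosl1 was -2.30. Fos over Fosl2 differed by -1.24 and Fosb over Fosl1 by -1.19 (exact permutation p = 0.0857 each, adjusted p = 0.206), the latter by -1.84 with a pseudocount of 0.1. None of the 12 ratios within the families had an adjusted p below 0.05. The sum of the 4 FOS genes went from 169 ± 27.1 (SD, n = 3) to 273 ± 29.7 CPM (n = 4), a sum made up mostly of Fosl2. Per kb of transcript, Fosl2 made up 81.0 to 86.3% of the family in control and 82.8 to 94.1% in EPS, and Fos 8.95 to 17.0% and 3.77 to 9.32%.

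Among the JUN genes, Jun itself was level between groups and the other two depended on a single library. Jun, the main partner of FOS in AP-1, was at 104, 56.2 and 98.6 CPM in control and at 74.4, 85.8, 98.4 and 83.7 CPM in EPS. The EPS libraries lay within the range of the controls. The log2 fold change was 0.03 (SE 0.22, 95% interval -0.47 to 0.54; adjusted p = 0.955 in limma), and its sign turned with the scaling, to -0.032 with quantile scaling and -0.078 with median-of-ratios scaling. Jun has a single exon at chr4:95049034-95052222 on the minus strand. It shares 689 bases with the antisense gene Junos, for which no level was listed.

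Junb, often an antagonist of JUN that is known to maintain muscle mass, was at 223, 289 and 697 CPM in control and at 214, 278, 181 and 222 CPM in EPS. Control replicate 4 was far above every other library, and the remaining controls lay within or just above the EPS range. The log2 fold change was -0.68 (SE 0.36, 95% interval -1.50 to 0.13; adjusted p = 0.509 in limma), and -0.20 without control replicate 4; the exact permutation p with all libraries was 0.0571. Junb lies at chr8:84974484-84978718 on the minus strand and shares 351 bases with Prdx2 on the other strand. Prdx2 was at 394, 490 and 396 CPM in control and at 573, 706, 437 and 661 CPM in EPS.

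Jund, the most constitutively expressed JUN gene in many cells, was at 157, 188 and 391 CPM in control and at 164, 289, 195 and 162 CPM in EPS. Control replicate 4 was again the highest, followed by EPS replicate 2. The log2 fold change was -0.20 (SE 0.33, 95% interval -0.95 to 0.55; adjusted p = 0.862 in limma) and turned to 0.19 without control replicate 4. Junb over Jund, a ratio in which the library total largely cancels, was lower in EPS by 0.48 on the log2 scale without overlap (exact permutation p = 0.0857, adjusted p = 0.206), and lower by 0.39 without control replicate 4. Jund lies at chr8:70698949-70700616 on the plus strand. It shares 919 bases with the antisense gene Gm11175, for which no level was listed. The sum of the 3 JUN genes was 484, 533 and 1186 CPM in control and 453, 654, 475 and 468 CPM in EPS (exact permutation p = 0.286).

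**Figure D3:**
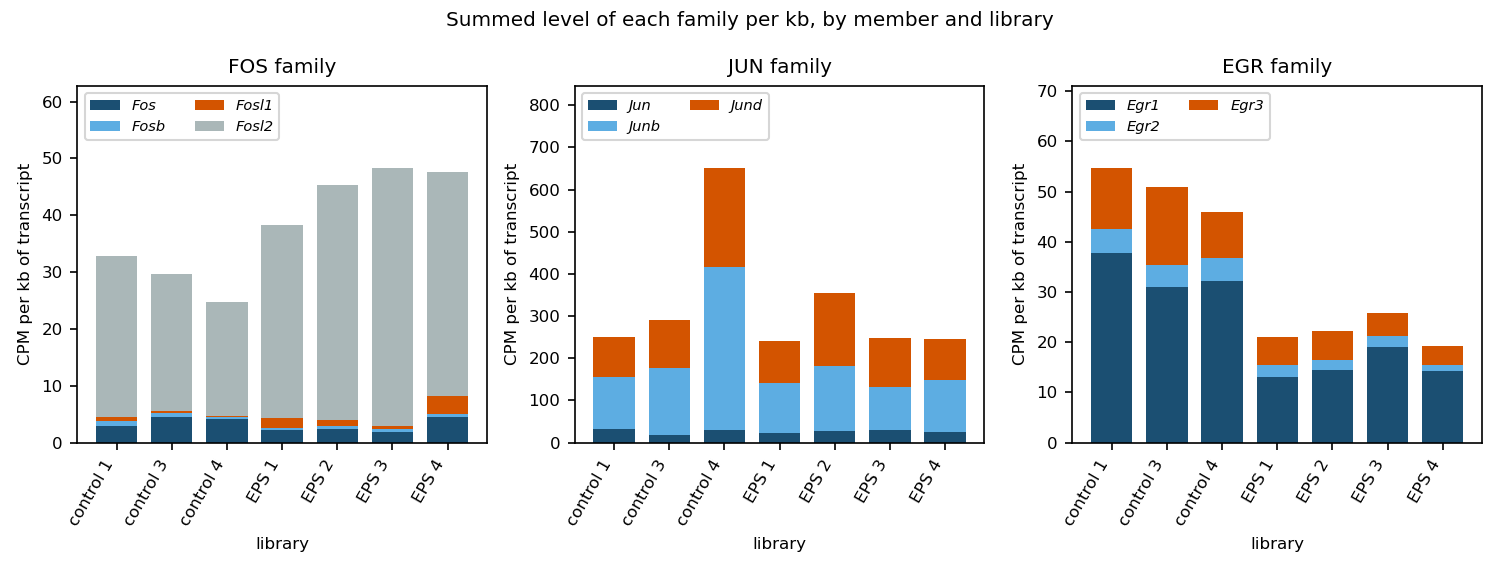
Summed CPM per kb of transcript of the FOS, JUN and EGR families in each library, stacked by gene, on linear axes that start at 0. The EGR stacks are lower in every EPS library than in any control library, the FOS stacks are higher and consist mostly of Fosl2, and the JUN stack of control replicate 4 stands above all others.

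Compared per length, Junb and Jund were the most abundant of the 10 genes in both groups. In control the mean CPM per kb was 223 for Junb, 147 for Jund, 33.6 for Egr1, 27.0 for Jun, 24.1 for Fosl2, 12.3 for Egr3, 4.58 for Egr2, 3.85 for Fos, 0.653 for Fosb and 0.412 for Fosl1. Without control replicate 4, Junb was at 142 and Jund at 104 and both still led, and Fosl2 (26.1) and Jun (25.1) changed places. Between neighbours in this order the ranges were apart for Jund and Egr1, Fosl2 and Egr3, Egr3 and Egr2, and Fos and Fosb, and overlapped for the other pairs. In EPS, Fosl2 (40.1) and Jun (26.8) stood above Egr1 (15.2), with ranges apart, whereas in each control library Egr1 had been above both. The mean CPM per kb in EPS was 124 for Junb, 121 for Jund, 4.87 for Egr3, 2.69 for Fos, 2.01 for Egr2, 1.60 for Fosl1 and 0.536 for Fosb, and the ranges of neighbours from Egr3 down overlapped.

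Over the lists of genes tied to these factors, 2 of 104 tested genes (1.92%) passed the test, against 1.41% of all tested genes. Both were lower, and the share of all tested genes called lower was 0.439%. Of the 104 genes, 90 averaged at least 1 CPM. A limma fit restricted to the 12256 genes of that level called 310, of which 91 were lower. The shares over all tested genes are thus drawn from a set with more scarce genes. In edgeR, 6 of the 104 had an adjusted p under 0.05, all lower, against 290 of the 19144 genes, of which 141 were lower. At an unadjusted P under 0.01 in limma, 8 of the 104 were lower and 0 higher, against 256 and 542 of the 19144 genes. Among 15 dimer partners and relatives of the ATF and MAF families, 0 passed, with a median log2 fold change of 0.08. Atf3, a stress-induced partner of JUN, was at 1.99 to 3.37 CPM in control and at 3.54, 3.65, 2.74 and 39.7 CPM in EPS, so that 1 library carried the difference. Its log2 fold change was 1.05 (adjusted p = 0.649 in limma), 0.24 without EPS replicate 4 and 2.11 in edgeR, where it passed both thresholds (adjusted p = 0.152). Atf4, which drives the integrated stress response, had a log2 fold change of -0.68 (adjusted p = 0.425 in limma), or -0.27 without control replicate 4, and its target Ddit3 had one of 0.65 (adjusted p = 0.472 in limma).

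Of 9 listed symbols of regulators of CArG boxes, 7 were in the files and tested and 0 passed. Srf was at 87.3 ± 28.1 CPM (SD, n = 3) in control and 62.6 ± 4.61 CPM (n = 4) in EPS, with a log2 fold change of -0.43 (adjusted p = 0.460 in limma) that was -0.18 without control replicate 4. The myocardin-related Mkl2 and the ternary complex factor Elk4 had log2 fold changes of 0.38 and 0.31. When each library was left out, that of Mkl2 ranged from 0.20 to 0.62 and that of Elk4 from -0.00094 to 0.549. Of 20 listed genes of the MAP kinase cascade, 19 were tested and 0 passed, with a median of 0.06. Rps6ka1 (0.63), Mapk3 (0.42) and Map2k1 (0.40) had the largest estimates with all libraries included. Without EPS replicate 2, Map2k1 was at 0.22.

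Among 16 MAP kinase phosphatases and feedback inhibitors, 0 passed both thresholds, and 2 met the P threshold, both lower, as did 256 of the 19144 genes, with 542 higher. Dusp6, a phosphatase of ERK that is itself induced by ERK signalling, was at 25.0, 37.7 and 34.3 CPM in control and at 16.7, 18.8, 14.3 and 17.7 CPM in EPS, with a log2 fold change of -0.88 (adjusted p = 0.127 in limma). It passed both thresholds in 4 of 16 alternatives, among them edgeR (-1.04, adjusted p = 0.0186) and DESeq2 (-1.05, adjusted p = 0.000293). Dusp8, a phosphatase of JNK and p38, had one of -0.87 (adjusted p = 0.114 in limma) and passed both thresholds in DESeq2 only (-1.01, adjusted p = 0.000360). Neither overlapped between groups. Spry2, a receptor tyrosine kinase inhibitor, had one of -0.81 (adjusted p = 0.440 in limma), or -0.45 without control replicate 4, and passed in DESeq2 only (-1.01, adjusted p = 0.110).

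The EGR corepressors Nab1 and Nab2, of which Nab2 is itself an EGR target, did not pass in limma. Nab2 was at 89.9, 104 and 306 CPM in control and at 82.0, 86.7, 76.4 and 81.5 CPM in EPS, without overlap. Its log2 fold change was -0.79 (adjusted p = 0.458 in limma) and -0.24 without control replicate 4, and that of Nab1 was 0.33. Nab2 passed both thresholds in edgeR (-1.14, adjusted p = 0.0684) and DESeq2 (-1.15, adjusted p = 0.0505), with all libraries included. Of 12 EGR target genes, 0 passed both thresholds, with a median of 0.03 against 0.04 over all tested genes. Pdgfb, a growth factor of mesenchymal cells, met the P threshold (log2 fold change -0.91, adjusted p = 0.185 in limma), with -0.71 without control replicate 4. It passed both thresholds in 5 of 16 alternatives, namely quantile scaling (-1.03), median-of-ratios scaling (-1.02), edgeR (-1.06, adjusted p = 0.0276), DESeq2 (-1.07, adjusted p = 0.00499) and limma without control replicate 1 (-1.07). Tgfb1 had a log2 fold change of 0.57 (adjusted p = 0.469 in limma), which ranged from 0.28 to 0.79 when each library was left out.

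Of 13 AP-1 target genes, 1 passed and was lower, where 0.439% of all tested genes were. Hbegf, an EGF receptor ligand, fell from 43.9, 38.9 and 48.6 CPM in control to 23.1, 17.0, 20.8 and 20.3 CPM in EPS, with no overlap and a log2 fold change of -1.07 (SE 0.17; adjusted p = 0.0690 in limma). It was just short of 2-fold in 3 of 16 alternatives, at -0.998 without control replicate 4 and -0.996 both without EPS replicate 2 and with the replicate block. Plau, a secreted protease named here after its values were seen, met the P threshold with a log2 fold change of -0.96 (adjusted p = 0.0692 in limma), and passed both thresholds in 7 of 16 alternatives, among them edgeR (-1.09, adjusted p = 0.00675) and DESeq2 (-1.10, adjusted p = 2.07e-06). Of 22 other immediate early genes, 1 passed, also lower. Ctgf, a matricellular protein induced by mechanical tension, fell from 105, 106 and 191 CPM in control to 56.8, 48.8, 44.9 and 52.4 CPM in EPS (log2 fold change -1.33, SE 0.22; adjusted p = 0.0712 in limma), and by 1.04 on the log2 scale without control replicate 4. In this list the groups did not overlap for 5 genes with EPS lower and 1 with EPS higher (2.85% and 7.76% of all tested genes), and the median was -0.01, against 0.04 over all tested genes.

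**Figure D4:**
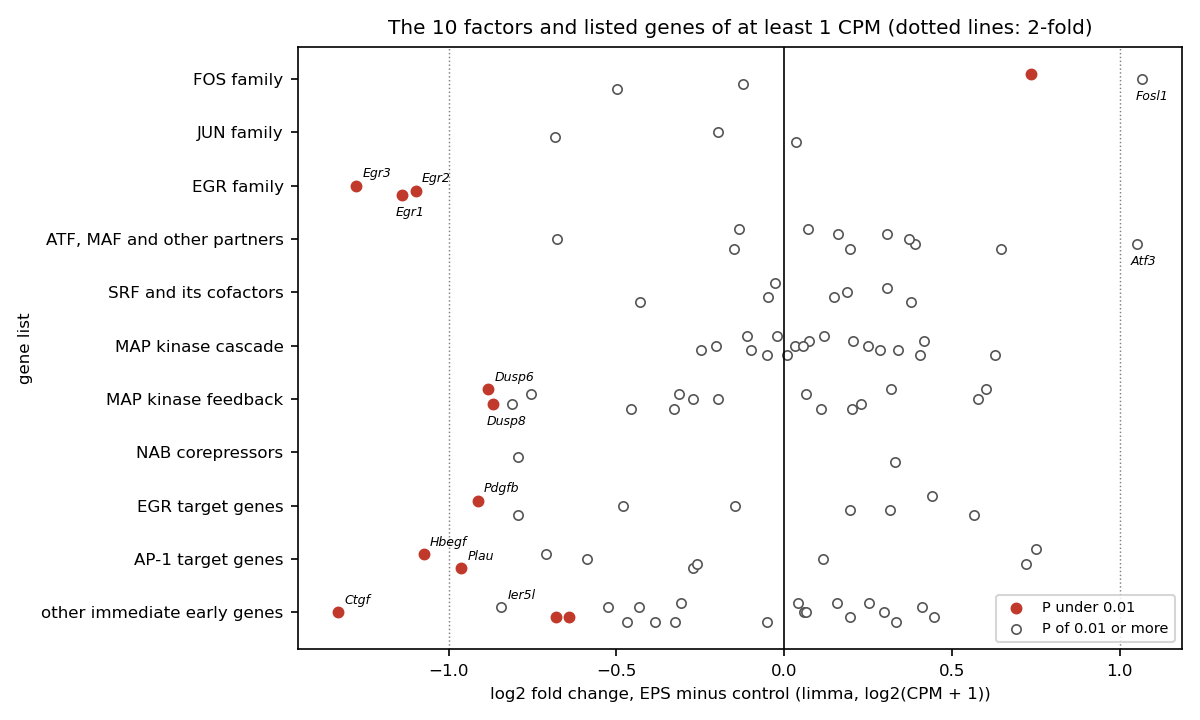
Log2 fold change (limma, log2(CPM + 1)) of the 10 factors by family and of the listed genes with a mean of at least 1 CPM; each point is a gene, filled where the unadjusted P was under 0.01, and dotted lines mark 2-fold. The EGR genes, Hbegf and Ctgf are the filled points beyond the left dotted line, and Fosl2 is the filled point to the right of 0.

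Across the 7 libraries, the genes whose log2(CPM + 1) followed each EGR gene most closely, of 10469 genes with at least 5 CPM on average, were Dnajc1 (Pearson r = 0.997), Camkk2 (0.991) and Mybpc1 (0.983) for Egr1, Lin7c (0.993), Igf1 (0.990) and Mfsd7a (0.984) for Egr2, and Pbx3 (0.987), 9930013L23Rik (0.987) and Sfswap (0.985) for Egr3. These are descriptions of a ranked choice over the same libraries and the same totals, with no test. All 9 were lower in each EPS library than in any control library, by amounts that ranged from a log2 fold change of -0.15 for Sfswap to -1.96 for Mybpc1, a slow-type myosin binding protein. Choosing by r favours genes with this pattern, and r does not measure the size of a change.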

How the data were processed

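RNA was sequenced from C2C12 myotubes (3 control and 4 EPS libraries; reads of 100 bp from a directional library). Per the submitters' processing notes, reads were aligned with STAR 2.5.4b to GRCm38; the counting tool and its strand setting are not given in the sources used here. The authors deposited CPM (read counts scaled to the library total) per gene. Values were whole multiples of the worth of 1 read (100% whole within 0.1 read), so reads were recovered for count tests. Log2(CPM + 1) of 19144 genes above 0 in at least 1 library was tested with limma 3.58.1 (mean-variance trend, empirical Bayes, Benjamini-Hochberg adjustment over all genes) in R 4.3.3. The fit was also run on simulated reads with a larger change than that of any EGR gene, which does not test calls of their size. A change was called in the limma fit at P under 0.01 and over 2-fold, the thresholds of the study's results. The study itself used edgeR on counts, so the calls are not the same. Its methods give P under 0.001, which was tried as an alternative. Single genes, sums and ratios were tested with exact two-sided permutation tests. Alternatives were edgeR 4.0.16, DESeq2 1.42.0, other pseudocounts, filters, scalings, a replicate block and leaving out each library. Levels per kb used the GENCODE M21 transcript length. The members and gene lists were chosen with earlier results of these data known. Named list genes were those called in a list, at most 4, or otherwise the 3 with the largest change among those of at least 1 CPM; for likeness, the 3 genes with the highest r. Cell identity was read from marker lists of 7 cell types. Depth, 16616917 to 22120641 reads per library, limits genes near 1 CPM.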

Additional observations from a re-analysis of the deposited data

Results flagged for a closer look

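Of 38 named genes and 12 ratios examined in the 4 EPS libraries, 4 had a single library separated from the rest by more than Dixon's 95% limit, where chance flags about 1 in 20; none of the 10 factors was among them. Atf3 reached 39.7 CPM in EPS replicate 4, against 2.74 to 3.65 CPM in the other EPS libraries. Map2k1 reached 213 CPM in EPS replicate 2. Camkk2 reached 26.9 CPM and Mybpc1 10.2 CPM in EPS replicate 3; both had been named for their likeness to Egr1 over these libraries.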

How the results depend on the processing

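The count of factors called lower went from 3 to 0 when an adjusted p under 0.05 was required in limma, and to 2 at P under 0.001. Egr1 and Egr3 were called in 16 of 16 alternatives and Egr2 in 14, with adjusted p-values of 7.48e-06 to 0.510, 3.55e-06 to 0.510 and 0.000676 to 0.539 across limma, edgeR and DESeq2 settings. Leaving out each library gave log2 fold changes of -1.25 to -1.06 for Egr1, -1.20 to -0.94 for Egr2 and -1.46 to -1.10 for Egr3. The count of factors called higher, 0, was 1 (Fosl1) in edgeR and 1 in DESeq2, and ranged from 0 to 1 when each library was left out. The count over all tested genes, 269, was 601 with a pseudocount of 0.1, 629 in edgeR, 585 in DESeq2, 161 with the replicate block, 106 at P under 0.001 and 27 at an adjusted p under 0.05; the cause was not tested.

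Jun, at 0.03, turned to -0.032 with quantile scaling, -0.078 with median-of-ratios scaling, -0.11 in edgeR and -0.13 in DESeq2, and ranged from -0.24 to 0.19 when each library was left out. On leaving out each library, Fosb ranged from -0.50 to 0.069, Jund from -0.46 to 0.19, and Elk4 from -0.00094 to 0.549. Egr1 over Egr2 turned from -0.042 to 0.061 with a pseudocount of 0.1, and Fosb over Fosl2 (-0.86) then had an exact permutation p of 0.114. For the 10 factors, 146 of the values under alternatives kept direction and call, 9 reversed, 3 gained the call and 2 lost it.

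Same-numbered libraries of the groups deviated together with r = 0.215, -0.414 and 0.0650 for replicates 1, 3 and 4, so the numbers were not taken as pairs. With the replicate block, in which EPS replicate 2 has no partner, 161 genes were called and Egr2 (-1.09) was not.

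With 3 and 4 libraries, an exact permutation p cannot go below 0.0286. Genes near 1 CPM, such as Fosl1 and Fosb, rest on few reads, and the fold change of Fosl1 depends on the pseudocount (1.07, or 1.72 with 0.1).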
